A study of Homo sapiens with 8 samples.

Results

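The proteasome, the ubiquitin-conjugating enzymes and the deubiquitinases of the USP family were examined for peaks of N4-acetylcytidine (ac4C), an acetylated base of RNA, in a cervical carcinoma cell line with and without the enzyme NAT10. Members were the protein-coding genes whose symbol starts with PSMA, PSMB, PSMC, PSMD, PSME or UBE2, or is USP with a number and at most 1 further letter, with Y-linked genes left out. RefSeq lists 131 such genes. Of these, 62 had at least 1 peak under their name, with 25 of the 4557 peaks in the knockout list and 83 of the 12924 peaks in the SiHa list. The symbol rule also takes in PSMC3IP and PSME3IP1, which are not proteasome subunits.

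RNA bound by an antibody to ac4C was sequenced beside its input RNA from NAT10-knockout SiHa cells (labelled KONAT10SiHa) and from the SiHa cells themselves, a human papillomavirus-positive cervical squamous carcinoma line. There were 2 immunoprecipitated and 2 input libraries of either population, 8 in all, and the deposited result is 1 peak list for each. No label states which list is which in words, and the list whose name carries an added K was read as that of the knockout cells. The labels do not say how the knockout was made or whether the cells are 1 clone, and they give no treatment or time. Neither list holds read counts or replicate values, so the depth is unknown and no difference between the lists could be set against the spread between replicates. A missing peak can also come with low expression of the RNA, which peak lists do not show.

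Ubiquitin is passed from an activating enzyme (E1) to a conjugating enzyme (E2, the UBE2 genes) and, with the help of a ligase (E3), to a substrate protein. The proteasome degrades proteins that carry ubiquitin chains. Its barrel-shaped core is built of alpha (PSMA) and beta (PSMB) subunits, and its regulatory cap holds a ring of ATPases (PSMC) and non-ATPase subunits (PSMD) that bind, unfold and deubiquitinate substrates. PSME proteins are alternative activators of the core, and USP enzymes cleave ubiquitin from proteins. NAT10 forms ac4C in RNA.

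NAT10, the gene knocked out, had no knockout peak and 1 SiHa peak (chromosome 11, 34142274 to 34146283, deposited p 5e-37). Among all named protein-coding genes with a SiHa peak 70.4% likewise lacked a knockout peak, so this does not show which list is that of the knockout. The squamous and epithelial marker list had peaks in 3 of 9 genes in the knockout list and in 4 of 9 in the SiHa list. KRT8 and KRT19 had peaks in both lists, KRT18 in the knockout list alone, and KRT5 and EPCAM in the SiHa list alone. Some markers of cells that the line should not hold also had peaks. In the knockout list these were 4 of 5 blood genes (HBA1, HBA2, HBB and PTPRC) and 1 of 2 liver genes (ALB). They also included 1 of 2 endothelial genes (PECAM1) and 1 of 3 fibroblast genes (COL1A2). In the SiHa list they were 3 of 5 blood genes (HBA1, HBA2 and HBB) and 2 of 2 liver genes (ALB and APOA1). No endothelial or fibroblast marker had a SiHa peak. The part of these markers in the results below was not tested.

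Some members had peaks at the very start of a transcript. Among the members with a RefSeq window, 5 had a SiHa peak that covered bases from 70 before to 30 after an annotated transcript start. Of these 5, 4 encode proteasome subunits or activators. In the knockout list a peak covered such a window in 2 of 5 PSM genes with a knockout peak and a window (PSMA6 and PSMD12), in 0 of 13 UBE2 and USP genes (upper bound 24.7%), and in 2.55% of all protein-coding genes with both. In the SiHa list it did so in 4 of 13 PSM genes with a SiHa peak and a window (30.8%, exact binomial 95% interval 9.09 to 61.4%), in 1 of 34 UBE2 and USP genes (2.94%, 0.0744 to 15.3%), and in 4.18% of all protein-coding genes with both. This grouping was made after the peaks had been seen and was not tested. The 5 genes of the SiHa list were PSMD12, a scaffold subunit of the cap, PSMD14, the deubiquitinase of the cap, PSMC1, a cap ATPase, PSME3, a nuclear activator, and USP10, a deubiquitinase of p53. These windows are shown to place the peaks on the transcript start, each on the strand of the gene (RefSeq, GRCh38.p14). Capitals mark the bases that lie inside a peak. In PSMD12 the knockout peak covered the same bases of the window as the SiHa peak. In PSMA6 a knockout peak covered bases in the windows of 2 annotated starts inside the gene, not at the start of its span. It covered the upstream of these starts and ended before the other.
PSMD12 (chr17:67366548-67366647, minus strand): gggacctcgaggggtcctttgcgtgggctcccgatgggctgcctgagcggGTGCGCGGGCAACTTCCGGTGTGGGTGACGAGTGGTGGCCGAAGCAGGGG
PSMD14 (chr2:161308355-161308454, plus strand): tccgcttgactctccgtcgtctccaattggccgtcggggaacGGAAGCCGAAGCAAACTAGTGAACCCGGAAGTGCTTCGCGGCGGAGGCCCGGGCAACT
PSMC1 (chr14:90256483-90256582, plus strand): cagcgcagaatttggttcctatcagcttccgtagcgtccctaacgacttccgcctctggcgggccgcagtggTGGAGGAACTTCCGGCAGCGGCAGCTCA
PSME3 (chr17:42833327-42833426, plus strand): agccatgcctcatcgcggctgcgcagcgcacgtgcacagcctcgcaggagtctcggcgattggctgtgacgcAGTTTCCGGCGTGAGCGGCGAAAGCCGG
USP10 (chr16:84699930-84700029, plus strand): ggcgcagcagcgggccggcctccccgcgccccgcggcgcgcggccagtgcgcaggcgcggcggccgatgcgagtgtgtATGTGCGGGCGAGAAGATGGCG

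The PSMC1, PSME3 and USP10 peaks began 2, 2 and 8 bases after the start of the gene span, and those of PSMD12 and PSMD14 began 20 and 28 bases before it. The GC content of these 5 windows ranged from 62% in PSMC1 to 80% in USP10. The letters TTCCGG, searched on both strands, occurred in the windows of PSMD12, PSMD14, PSMC1 and PSME3 and not in that of USP10, and in these 4 it lay inside the peak bases. In PSMD14 they occurred only as the reverse complement, CCGGAA, on the gene's strand. In PSMA6 they occurred in the window of the downstream start alone, and outside the bases of the knockout peak. The search for TTCCGG was chosen after the windows had been seen. Over 1 window a gene, TTCCGG occurred in 13 of 40 PSM members (32.5%), 5 of 28 UBE2 members (17.9%) and 8 of 39 USP members (20.5%), against 2067 of 15813 protein-coding genes (13.1%). The CXX repeat, a C followed by any 2 bases and this 4 times over, has been described for ac4C sites in human mRNA and was searched on the gene's own strand. Most of each window lies before the annotated start. The repeat occurred in the windows of PSMD14, PSMC1 and USP10, but wholly inside the peak bases in PSMC1 alone of these 5, and it occurred in 55.0% of all protein-coding windows. In the PSM members the share was 40.0%, in the UBE2 members 71.4% and in the USP members 59.0%. Peaks outside these windows were not searched, since no genome sequence was used here.

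Members had SiHa peaks more often than protein-coding genes at large, a difference described here and not tested. A knockout peak was found in 24 of 131 members (18.3%, exact binomial 95% interval 12.1 to 26%), against 15.0% of all protein-coding genes. A SiHa peak was found in 55 members (42.0%, 33.4 to 50.9%), against 29.5%. A peak in either list was found in 62 members (47.3%, 38.5 to 56.2%), against 35.8%. Members also have longer spans, with a median of 35743 bases against 24140 over all protein-coding genes, and the part of length or expression in these shares was not tested. Intervals here cover counting of genes or peaks alone, and genes that a cell does not express count among those without a peak.

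By family, in the knockout list 6 of 45 PSM genes (13.3%, 5.05 to 26.8%), 3 of 36 UBE2 genes (8.33%, 1.75 to 22.5%) and 15 of 50 USP genes (30%, 17.9 to 44.6%) had a peak. In the SiHa list these counts were 14 PSM genes (31.1%, 18.2 to 46.6%), 15 UBE2 genes (41.7%, 25.5 to 59.2%) and 26 USP genes (52.0%, 37.4 to 66.3%). Over all protein-coding genes the shares were 15.0% in the knockout list and 29.5% in the SiHa list. The intervals of the PSM and UBE2 genes hold these values in both lists, and those of the USP genes lie above them. The intervals of the families overlap in both lists. In the core particle PSMA5, PSMA6, PSMB4 and PSMB6 were the 4 members with a peak, of 8 PSMA and 11 PSMB genes. Of 7 PSMC and 14 PSMD genes, counts that include PSMC3IP and the assembly chaperone PSMD5, 2 and 7 had a peak. The intervals of these subgroups overlap widely, from 3.19 to 65.1% in PSMA, 2.28 to 51.8% in PSMB, 3.67 to 71% in PSMC and 23 to 77% in PSMD, and each holds the 35.8% of all protein-coding genes. No PSME gene had a knockout peak, a count of 0 of 5 whose upper bound is 52.2%, and 3 had SiHa peaks.

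**Figure D1:**
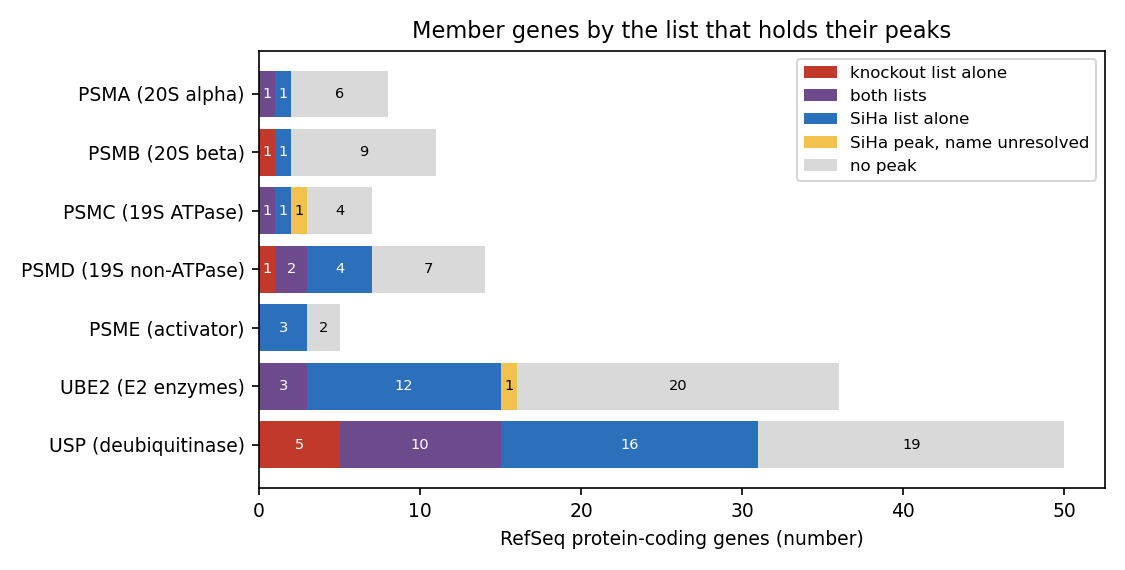
Number of member genes in each family (horizontal axis) by the list that holds their peaks. Among the 50 USP genes, 5 had peaks in the knockout list alone, 10 in both and 16 in the SiHa list alone, while 12 of the 15 named UBE2 genes with a SiHa peak had it alone.

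Of the 55 members with a SiHa peak, 38 (69.1%, 55.2 to 80.9%) had no knockout peak, 17 had peaks in both lists, and 7 further members had a knockout peak alone. Over all named protein-coding genes with a SiHa peak, 70.4% had no knockout peak, so the members stood close to the background. By family the share was 10 of 14 PSM genes (71.4%, 41.9 to 91.6%), 12 of 15 UBE2 genes (80.0%, 51.9 to 95.7%) and 16 of 26 USP genes (61.5%, 40.6 to 79.8%), and each interval holds the background. These 7 were among 24 members with a knockout peak, and over all protein-coding genes 41.8% of those with a knockout peak had it alone.

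Where both lists held peaks, the members' peaks often lay at the same place. A knockout peak overlapped a SiHa peak of the same strand by at least 1 base in 10 of the 17 genes (58.8%), against 38.4% of protein-coding genes with peaks in both lists. Among single peaks, 10 of 25 knockout peaks (40.0%, 21.1 to 61.3%) were overlapped, with a background of 20%. From the other side, 10 of 83 SiHa peaks (12.0%, 5.93 to 21.0%) were overlapped, with a background of 6.85%. These differences from the background were not tested. When each peak had to share 50% of its bases, 5 knockout peaks were overlapped (20%, background 9.14%) and 5 SiHa peaks (6.02%, background 3.13%). In 8 of the 10 pairs the knockout peak lay wholly inside the SiHa peak, and the median width of the overlapping peaks was 165.5 bases in the knockout list and 345 bases in the SiHa list. An outer edge at the very same base was shared by 5 pairs.

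The proteasome genes with overlapping peaks were PSMC3 and PSMD12, both in the cap. PSMC3, one of the ATPases that unfold substrates, had a knockout peak of 210 bases between 47425888 and 47426263 on chromosome 11 (fold 4.1, p 3.2e-33), against a SiHa peak of 181 bases between 47425888 and 47426234 with a p listed at 0. The fold here is the authors' enrichment, a ratio given in the knockout list alone, without a statement of what it is relative to. All 181 bases of the SiHa peak were shared, and a further SiHa peak of PSMC3 at 47425187 to 47425559 (p 3.5e-05) had no counterpart. PSMC3 was the single member with a p listed at 0. PSMD12 had a knockout peak of 151 bases at chromosome 17, 67366447 to 67366597 (fold 9.4, p 4.7e-10), which lay inside the SiHa peak at 67366417 to 67366597. That SiHa peak had a p of 0.0066, among the weakest of the members. The PSMD12 peaks are those drawn in capitals over the transcript start above.

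Among conjugating enzymes the 1 overlapping case was UBE2O, a large enzyme that combines conjugating and ligase activity. Its knockout peak at chromosome 17, 76390949 to 76391129 (fold 2.85, p 0.0039) lay at the 3′ side of a SiHa peak of 420 bases that began at the same coordinate (p 6.3e-47), and 2 weaker SiHa peaks nearer to the gene end were not overlapped.

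The other 7 overlapping cases were deubiquitinases. USP10 had a knockout peak of 120 bases at chromosome 16, 84745064 to 84745183 (fold 6.67, p 9.8e-06), inside a SiHa peak of 658 bases with a p of 1e-274, the widest peak of all members. A second knockout peak of USP10 at 84759925 to 84760045 (fold 25.6) had no SiHa counterpart, and neither had the SiHa peak at the transcript start shown above (p 1.3e-28) a knockout counterpart. USP3, a histone deubiquitinase, had a knockout peak of 180 bases from 63588975 on chromosome 15 (fold 3.55, p 1.9e-05), against a SiHa peak of 270 bases from the same base (p 1.3e-60). USP42 had a knockout peak of 151 bases between 6155089 and 6156797 on chromosome 7 (fold 11.9, p 3.2e-17), inside a SiHa peak of 451 bases (p 1.3e-26).

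In 2 of these deubiquitinases the knockout p was lower than the SiHa p, although p-values of separately called lists do not measure a change. USP31 had a knockout peak of 181 bases at chromosome 16, 23068987 to 23069167 (fold 68.4, p 5e-48), inside a SiHa peak of 601 bases (p 3.2e-09). USP38 had a knockout peak of 180 bases at chromosome 4, 143213753 to 143213932 (fold 59, p 2.5e-14), inside the first of 3 SiHa peaks (p 7.9e-14). The remaining pair was weak in the knockout list: USP25 (fold 5.98, p 0.0018, false discovery rate 0.0912) and USP47, a homologue of USP7 (fold 5.13, p 0.026, false discovery rate 0.526), against SiHa peaks with p of 1.6e-12 and 1.8e-10.

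**Figure D2:**
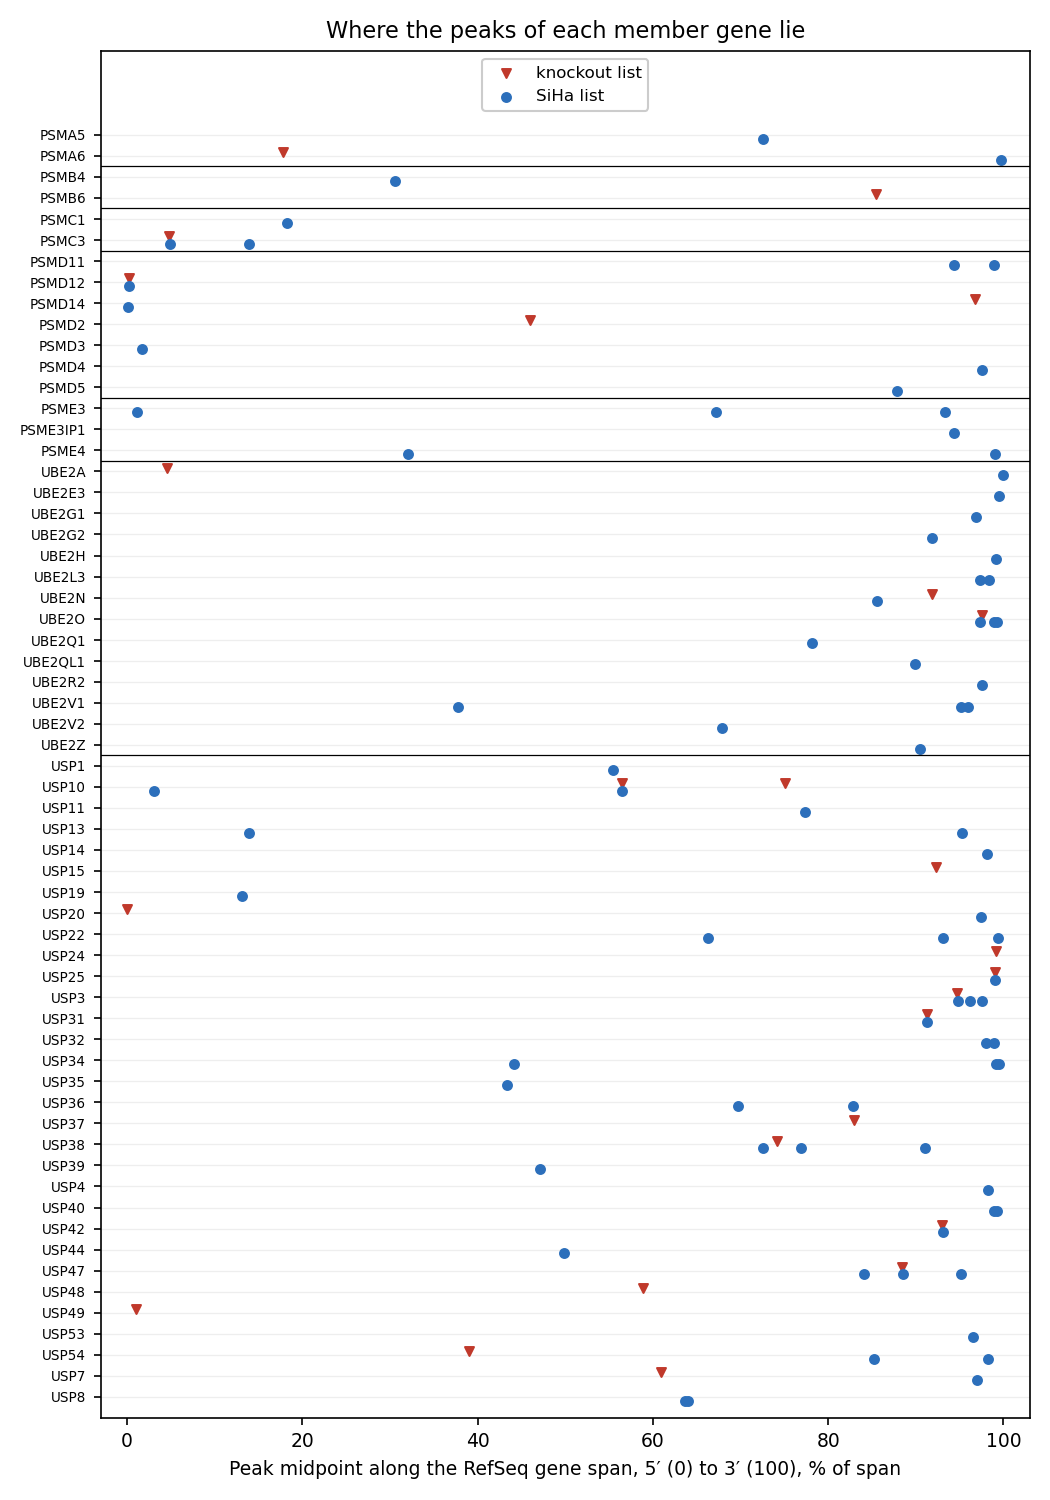
Midpoint of member peaks along the RefSeq gene span from the 5′ end (0) to the 3′ end (100), in percent of the span, with 1 row for each of 61 of the 62 genes; triangles are knockout peaks and circles SiHa peaks. Circles of the UBE2 and USP genes gather toward 100, whereas those of the proteasome genes lie at both ends.

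In the other 7 genes with peaks in both lists, the peaks lay between 2062 and 99689 bases apart, often at opposite ends of the gene. PSMD14 had its knockout peak 3271 bases before the gene end (chromosome 2, 161408267 to 161408446, fold 51.3, p 1.6e-12), against a SiHa peak at the transcript start (p 1.9e-05). PSMA6, an alpha subunit of the core, had a knockout peak in 2 blocks from 75 bases after the gene start (fold 20.5, p 4.7e-05), against a SiHa peak 30 bases before the gene end (p 3.4e-10). UBE2A, a conjugating enzyme of DNA damage tolerance and histone ubiquitination, had a knockout peak 354 bases after the start (fold 5.64), against a SiHa peak 6660 bases past the end of the RefSeq span. That peak carries the same identifier, so its gene model in the files reaches further than that of RefSeq.

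USP20 had a knockout peak 700 bases before the RefSeq start (fold 10.8, p 7.9e-19), against a SiHa peak 1064 bases before the gene end (p 0.00036). USP7, which deubiquitinates p53 and its ligase MDM2, had a knockout peak over 3 blocks between 8919107 and 8921214 on chromosome 16 (fold 21.8, p 2.5e-18), against a SiHa peak 1824 bases before the gene end (p 1.4e-10). USP54 had a knockout peak in the middle part of the gene (fold 43.6, p 1.3e-10), against 2 SiHa peaks nearer to the 3′ end. UBE2N, the conjugating enzyme of non-degradative chains, had a knockout peak with fold 15.4 and a false discovery rate of 0.155, against a SiHa peak 2062 bases away (p 5e-11).

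The 38 members with SiHa peaks alone included some of the strongest peaks of the pathway. The ubiquitin receptor PSMD4 had a SiHa peak of 241 bases ending 90 bases before the gene end (chromosome 1, 151266955 to 151267389, p 1e-117). USP1, which deubiquitinates PCNA in DNA repair, had a SiHa peak of 239 bases at chromosome 1, 62444828 to 62445066 (p 1e-113). UBE2V1, an inactive E2 variant that partners UBE2N, had 3 SiHa peaks, the strongest with a p of 1e-103. The UBE2V1 peaks recur at nearly the same coordinates under an identifier that matches the readthrough gene PEDS1-UBE2V1, so they may count the same reads.

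UBE2G2, the conjugating enzyme of endoplasmic reticulum-associated degradation, had a SiHa peak of 300 bases with a p of 2.5e-67, and PSMD5, an assembly chaperone of the cap, one of 360 bases with a p of 1.3e-47. PSME3IP1, a protein that binds PSME3, followed with a p of 7.9e-32, and UBE2Q1 with 2.5e-31 over 3 blocks. The deubiquitinase USP13 had its stronger SiHa peak near the gene end, with a p of 2.5e-29, and PSMC1 its peak over 4 blocks from the transcript start, with 3.2e-26. USP22, the histone deubiquitinase of the SAGA complex, completed these 10 with 3 SiHa peaks and a lowest p of 7.9e-23.

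In the remaining 28 genes the lowest p of a gene ranged from 1.3e-19 to 0.028. The 6 PSM genes were PSMA5, PSMB4, PSMD3, PSMD11, PSME3 and PSME4. The 9 UBE2 genes included UBE2E3, UBE2G1, UBE2H, UBE2L3 and UBE2Z. The 13 USP genes were USP4, USP8, USP11, USP14, which binds the proteasome, USP19, USP32, USP34, USP35, USP36, USP39, USP40, USP44 and USP53. The strongest of the 28 was USP34, with 3 SiHa peaks, and the weakest UBE2V2, with a single peak. Of the 38 genes, 25 had 1 SiHa peak, 9 had 2 and 4 had 3.

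Members with peaks in both lists had the lower SiHa p-values, as had protein-coding genes at large. The strongest SiHa peak of a gene had a median −log10 p of 11.8 in the 17 members with peaks in both lists and 7.52 in the 38 with SiHa peaks alone. The same medians over all protein-coding genes were 16.2 and 8.72. The members with overlapping peaks spanned the whole range, from PSMD12 at 2.18 to PSMC3 with a p listed at 0. Among genes with at least 1 peak in a list, members had 1.04 peaks per gene against 1.25 over protein-coding genes in the knockout list, and 1.51 against 1.85 in the SiHa list.

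**Figure D3:**
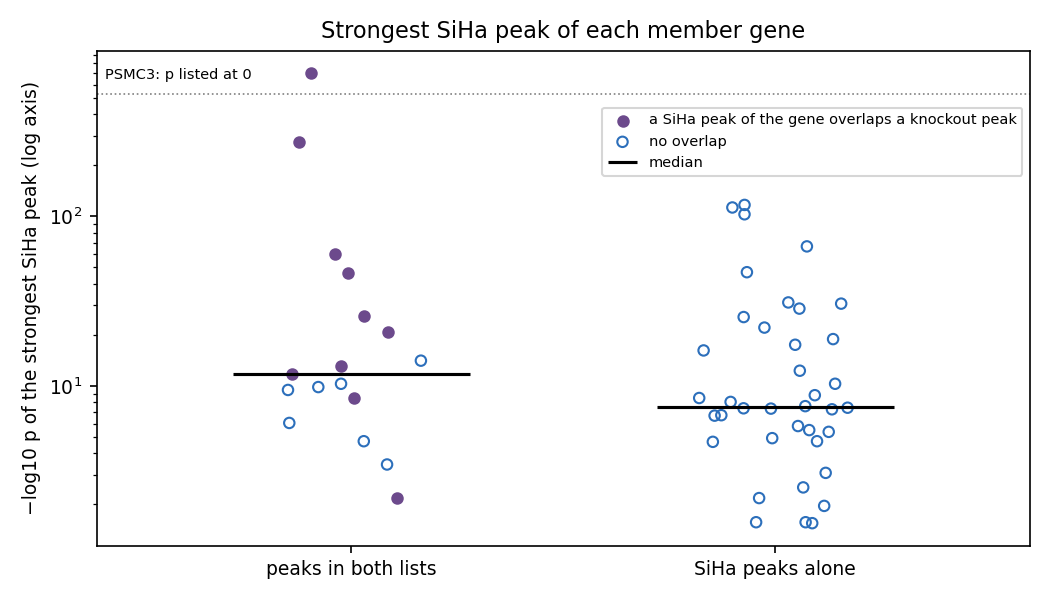
−log10 p of the strongest SiHa peak (log axis) of each of the 17 members with peaks in both lists and of the 38 with SiHa peaks alone; filled points are genes where a SiHa peak overlaps a knockout peak, lines are medians, and PSMC3, with a p listed at 0, stands above the dotted line at no measured height. The medians are 11.8 and 7.52, and the ranges overlap.

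The 7 members with a knockout peak alone were PSMD2, PSMB6, USP15, USP24, USP37, USP48 and USP49. USP24 had the highest fold of all member peaks, 182, at chromosome 1, 55067497 to 55067677 (p 5e-45), 1138 bases before the gene end. USP15 followed with a fold of 15.4 and a false discovery rate of 0.155. USP37, which deubiquitinates cyclin A, had a fold of 8.97 over 3 blocks (p 1.7e-09).

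PSMD2, a cap scaffold that docks ubiquitin receptors, had a fold of 6.73 at chromosome 3, 184303662 to 184303842 (p 1.5e-08), and USP48 one of 4.27 (p 0.00066). The lowest folds were those of USP49, at 1.72 and 1002 bases after the gene start (p 6.3e-11), and of PSMB6, a catalytic beta subunit with caspase-like activity, at 1.38 (p 0.0026). No UBE2 gene was in this class. With the SiHa list cut to the length of the knockout list by p, 15 members had a knockout peak alone.

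Many folds in the knockout list fall on whole multiples of 2.56, a repeated series found in 58.4% of the knockout peaks of protein-coding genes. Among the members 9 of 25 folds (36.0%) fell on it: 2 of the 10 overlapped peaks (USP38 and USP47), 5 of the 8 other knockout peaks of genes with peaks in both lists (PSMA6, PSMD14, UBE2N, USP10 and USP54), and 2 of the 7 in genes with a knockout peak alone (USP15 and USP24). Whether folds on and off the series share a scale is not known. A false discovery rate above 0.05 was given for 4 of the 25 knockout peaks (16.0%), those of UBE2N, USP15, USP25 and USP47, against 23.4% over protein-coding genes. The median fold was 9.4 in members and 12.8 in all protein-coding genes.

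**Figure D4:**
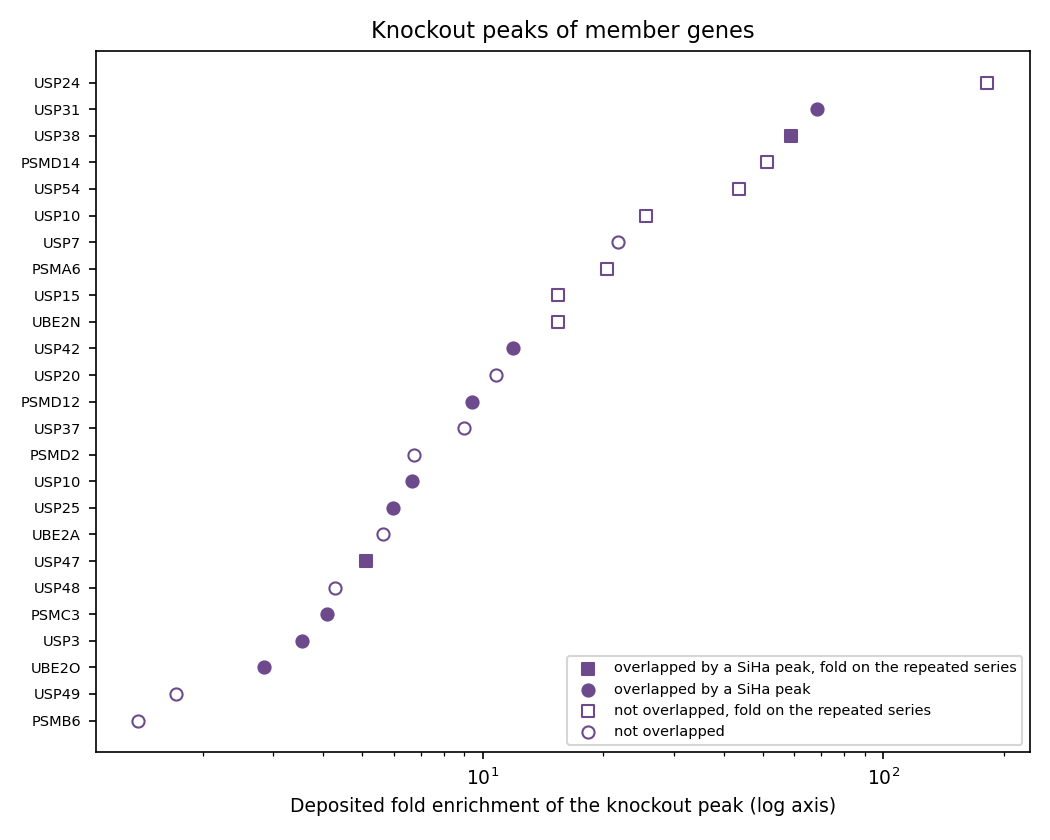
Deposited fold enrichment (log axis) of the 25 knockout peaks of members, ordered by fold; filled symbols are overlapped by a SiHa peak and squares lie on the repeated series of folds. Overlapped peaks occur from the fold of 2.85 in UBE2O to 68.4 in USP31, and 6 of the 8 peaks with folds from 20.5 to 182 are squares.

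Peaks near the gene start made up a larger share in the proteasome genes than in the enzymes of ubiquitin transfer and removal, a division chosen after the positions had been seen and not tested. In the knockout list 3 of 6 PSM peaks (50%) began within 1 kb of the gene start (PSMA6, PSMC3 and PSMD12), against 2 of 19 UBE2 and USP peaks (10.5%) and 9.97% over protein-coding genes. In the SiHa list 8 of 19 PSM peaks (42.1%) did so, against 3 of 64 UBE2 and USP peaks (4.69%) and 8.81% over protein-coding genes. The 8 peaks belonged to PSMB4, PSMC1, PSMC3, PSMD3, PSMD12, PSMD14 and PSME3, with 2 in PSMC3. Peaks that began before the gene start were counted here at any distance, also in the background shares. Among members the farthest was that of USP20, 700 bases before the start. PSM genes are short, with a median RefSeq span of 13457 bases against 63304 bases in UBE2 and USP genes, and its part in this difference was not tested.

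The division was similar on the scale of the span, but there the PSM peaks in the first 10% were all among those counted above, so this is a recount. The midpoint of 5 of 19 PSM peaks of the SiHa list (26.3%) lay in the first 10% of the span, against 2 of 64 UBE2 and USP peaks (3.12%), with a background of 7.48%. In the last 10% lay 7 PSM peaks (36.8%) and 37 UBE2 and USP peaks (57.8%), with a background of 40.6%. In the knockout list 5 of 25 member peaks (20%) lay in the first 10% and 9 (36.0%) in the last, with backgrounds of 7.99% and 32.6%. The 5 were 2 of 6 PSM peaks (33.3%) and 3 of 19 UBE2 and USP peaks (15.8%), so both shares were above the background there. The 9 were 1 PSM peak (16.7%) and 8 UBE2 and USP peaks (42.1%). Spans include introns, and the split into exons, coding sequence and untranslated regions was not analysed here. Blocks separated by a gap, as at a splice junction, made up 8 of 25 knockout peaks (32.0%) and 26 of 83 SiHa peaks (31.3%) of the members, against 32.9% and 25.8% over protein-coding genes.

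The remaining steps of the pathway were counted from a list of 107 further genes. Of these, 30 had a knockout peak (28%, 19.8 to 37.5%) and 54 a SiHa peak (50.5%, 40.6 to 60.3%), against 15.0% and 29.5% of all protein-coding genes. Among the 54, 34 (63.0%) had no knockout peak, against the background of 70.4%. The activating enzymes UBA1 and UBA6 had peaks in both lists. In UBA1 they lay at different places, and in UBA6 the peaks met at 1 shared base.

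Among E3 ligases and their partners 9 of the 30 genes with a SiHa peak also had a knockout peak. The other 21 of the 30 had none, a share close to the background of 70.4%. The 9 included FBXW7, XIAP and UBE3A, the ligase that a papillomavirus oncoprotein directs to p53. In UBE3A a knockout peak at chromosome 15, 25370847 to 25371027 (fold 5.56, p 2.5e-05) lay inside a SiHa peak of 599 bases (p 1.3e-07). Its stronger knockout peak, at 25407073 to 25407312 (fold 7.52, p 1e-18), was overlapped by no SiHa peak. HUWE1, UBR4, SKP1, ELOB, CUL7 and BIRC2 had knockout peaks alone. They were 6 of 15 E3 genes and partners with a knockout peak, against 41.8% over protein-coding genes. Of 15 other deubiquitinases with a SiHa peak, 7 also had a knockout peak, including OTUD7B and VCPIP1. The other 8 (53.3%) had none, against the background of 70.4%, a difference not tested. NFE2L1, the transcription factor that induces proteasome genes when the proteasome is impaired, had 5 SiHa peaks, the strongest of 807 bases with a p of 1e-255, and no knockout peak. The segregase VCP, with a lowest SiHa p of 5e-17, had none in the knockout list either.

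A further 67 members had no peak under their name in either list: 28 PSM genes, 20 UBE2 genes and 19 USP genes. They include the catalytic core subunits PSMB5 and PSMB7, the immunoproteasome subunits PSMB8, PSMB9 and PSMB10, the activators PSME1 and PSME2, the conjugating enzymes UBE2C and UBE2S of the anaphase-promoting complex, and USP5 and USP9X. For 2 members the name stayed unresolved, since a SiHa peak lay both in their span and in another that could be on the same strand. These were PSMC2 (p 0.0025, shared with SLC26A5) and UBE2D4 (p 0.00036, shared with POLR2J4).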

How the data were processed

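Per the submitters' processing notes, reads were checked with FastQC 0.11.7 and the build was GRCh38. For the aligner, peak caller, annotation and pooling of replicates: not given in the sources used here. Per the file headers, both deposited lists give a p-value per peak (column score), and the knockout list a fold enrichment, a ratio, with log10 of the p and of the false discovery rate, kept as a score. From the SiHa list 1 repeated line and 3 peaks off the chromosomes were left out, and 2 such peaks from the knockout list.

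The files hold Ensembl identifiers without names. Of 9046 identifiers, 7851 (86.8%) were named by position and strand from RefSeq spans (strand from the RefSeq promoter table, either strand where it gives none). A span had to hold 90% of an identifier's bases, failing that 50%, failing that be the single span touched. Rival identifiers left a span unassigned, and spans taken by 1 identifier were struck from the candidates of others. This rule was set after first results were seen. In a strand-free naming, 99.4% of names with known strand matched it. A fold counted as on the series within 0.005 of a multiple (0.05 from 10, 0.5 from 100). Intervals are exact binomial (Clopper-Pearson, 95%, SciPy 1.17.1). Naming and overlap were run on simulated peaks of 1 block, placed inside RefSeq spans with 1 identifier a gene. This does not test peaks of several blocks or gene models that reach further than RefSeq. Genes were named from the members with a peak, some of which are not reported here by name, in full for those in both lists, the 10 lowest SiHa p among SiHa-alone genes and up to 10 knockout-alone genes by fold. Members and lists were chosen with earlier results of these data known.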

Additional observations from a re-analysis of the deposited data

How the results depend on the processing

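Under the alternatives the share of SiHa-peak members that lack a knockout peak (69.1%) moved in the same direction as the background in each setting where both are given. It was 74.5% with knockout peaks of a false discovery rate up to 0.05 (background 75.7%), 80.6% with −log10 p above 8 in both lists (background 84.1%), 60.9% with the SiHa list cut to the length of the knockout list by p (background 64.1%) and 80.0% off the fold series (background 85.0%). With a gene kept only where peaks overlap it was 81.8% (background 88.7%), outside the interval of the reported value by construction, since 7 genes change class. Stricter naming gave 73.5% with strand and 75.0% without, position alone 75.9%, and leaving out PSME3IP1 68.5%. With reciprocal overlap of 50%, 20% of member knockout peaks were overlapped, against 40% as reported and outside its interval, and 6.02% of SiHa peaks. The number of members with a knockout peak alone (7) was 15 with the cut SiHa list, where the background count was 1964 in place of 1257, and 5 to 7 in the other settings. The other naming rules, the overlap-only class, the removal of PSME3IP1 and the cut list and p threshold for knockout peaks and knockout-alone genes were chosen after seeing the data. No replicate could be left out, and no paired analysis was possible because each population has 1 list without replicate values. The motif search over all peaks was not run for want of a genome, and only windows at transcript starts were searched. Depth is unknown, so missing peaks set no limit on ac4C.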
